A study of Mus musculus with 4 samples.

Results

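miR-219 and miR-338 are the miRNAs best known from oligodendrocytes, the cells that wrap axons in myelin. Their rows were chosen by name, with earlier results of these data known. Every row of the deposited table named miR-219 or miR-338 was taken, whatever its letter, copy or arm. This gave 5 mature miRNAs of 942, namely miR-338-3p, miR-338-5p, miR-219-5p, miR-219-1-3p and miR-219-2-3p. They were followed in the brain cortex of 4 B6C3 mice aged 9 months, each sequenced as 1 small RNA library. WT1 and WT2 were wild type, and APP3 and APP4 were AD mice, which carry both the APPswe transgene (a mouse/human APP with the Swedish mutation) and PS1ΔE9 (presenilin 1 without exon 9), directed to neurons. In the study the siblings WT1 and APP4 formed group 1, and the siblings WT2 and APP3 formed group 2. All 4 mice were anesthetized with pentobarbital before dissection. Whole cortex holds neurons, glia and vessels together. Fewer oligodendrocytes, less of a miRNA per oligodendrocyte and a change in other cells can therefore not be told apart.

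In textbook accounts both miRNAs are scarce in oligodendrocyte precursors, rise as the cells leave the cell cycle and mature, and repress factors that hold the cells in the precursor state. For miR-219 these include the receptor Pdgfra and the transcription factor Sox6, and for miR-338 Sox6 and Hes5. A miRNA hairpin is cut into a 5p and a 3p arm, of which either can be loaded into the silencing complex, and a target is recognised mainly through the seed of the loaded arm.

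The mature sequences are shown because their seeds decide which messengers each arm can bind. They were taken from RefSeq (GRCm38.p6), which gave a mature sequence for 4 of the 5 miRNAs and for 756 of the 942. Capitals mark the seed, bases 2 to 8 from the 5′ end.
miR-338-3p: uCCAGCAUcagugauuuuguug
miR-338-5p: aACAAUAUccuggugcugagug
miR-219-5p: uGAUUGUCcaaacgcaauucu
miR-219-1-3p: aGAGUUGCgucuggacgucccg
The 4 seeds differed from each other, and each was shared by 0 of the other listed miRNAs with a sequence.

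The hairpins show where the arms come from and which reads cannot be assigned to 1 locus. Capitals mark the mature arms that RefSeq places in each hairpin.
Mir338: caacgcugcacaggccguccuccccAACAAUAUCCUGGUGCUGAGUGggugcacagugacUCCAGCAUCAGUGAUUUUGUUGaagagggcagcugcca
Mir219a-1: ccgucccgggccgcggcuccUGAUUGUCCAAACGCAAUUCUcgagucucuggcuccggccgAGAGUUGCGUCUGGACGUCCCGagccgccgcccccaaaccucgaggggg
Mir219a-2: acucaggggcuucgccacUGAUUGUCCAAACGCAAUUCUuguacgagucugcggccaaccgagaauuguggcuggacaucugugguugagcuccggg
On GRCm38.p6, Mir338 spans bases 120014765 to 120014862 of chromosome 11 (minus strand), and in GENCODE vM21 it falls in an intron of Aatk, on the same strand. The hairpin of miR-3065 lies on the opposite strand of the same stretch, and all of its 87 bases are the complement of Mir338. Its 5p arm (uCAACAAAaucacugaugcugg) is complementary to miR-338-3p over 21 bases. It had 0 rows in the deposited table and so was not analysed here. Mir219a-1 spans bases 34024983 to 34025092 of chromosome 17 (minus strand), in an exon of the lincRNA Gm26940 and 303 bases from Ring1. Mir219a-2 spans bases 29845631 to 29845727 of chromosome 2 (minus strand), outside protein-coding genes and 629 bases from Urm1. Hairpins are annotated on the opposite strand here too, Mir219c at Mir219a-1 and Mir219b at Mir219a-2. Mir219a-1 and Mir219a-2 carry the same 5p arm, so the reads of miR-219-5p come from either locus. In contrast, miR-219-1-3p and miR-219-2-3p each belong to 1 locus.

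The libraries held between 19048747 reads counted on miRNAs (APP4) and 26085776 (WT1), and levels are given as reads per 1000000 miRNA reads (RPM), with 95% Wilson intervals for counting error only. At this depth 3 reads correspond to 0.115 to 0.157 RPM, far below the level of each of the 5 miRNAs. The 5 neuronal miRNAs of a marker list summed to between 78049 and 85393 RPM. No other tissue or brain region was sequenced, so this sum cannot check the cortex label. In APP4, 10 miRNAs of choroid plexus and epithelium, among them the miR-200 family, summed to 8788 RPM against 4308 to 4964 in the other libraries. All 8 rows of the miR-200 family and of the cluster of miR-182 were highest in APP4, whereas miR-204-5p, abundant in choroid plexus, was lowest there, with 2900 RPM against 3472 to 4370. Their part in the differences described here was not tested.

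The 5 miRNAs together took 0.191% and 0.217% of the miRNA reads of WT1 and WT2, and 0.218% and 0.228% of those of APP3 and APP4. miR-338-3p, the arm of Mir338 usually described as the active one, was at 1349 RPM (interval 1335 to 1364) and 1728 RPM (1711 to 1745) in WT1 and WT2. In APP3 and APP4 it was at 1670 RPM (1653 to 1688) and 1634 RPM (1616 to 1652). In RPM, WT1 was low and the other 3 mice lay close together, with both AD mice between the 2 WT mice. With the library sizes of TMM, the normalization used in edgeR below, WT1 and WT2 were at 1467 and 1746. APP3 and APP4 were then at 1667 and 1490, so that both siblings of group 1 were the low ones. By RPM, miR-338-3p lay between rank 57 and rank 65 of all listed miRNAs. miR-219-2-3p, the 3p arm of the chromosome 2 locus, was the next in reads, with 424 and 315 RPM in WT1 and WT2 and 353 and 482 RPM in APP3 and APP4. miR-338-5p, the other arm of Mir338, was at 111 RPM (107 to 115) and 105 RPM (101 to 110) in WT1 and WT2, and at 135 RPM (130.1 to 140) and 135 RPM (130 to 140.4) in APP3 and APP4. It was the only one of the 5 miRNAs for which both AD mice stood on one side of both WT mice, here above them. Both AD mice lay above both WT mice in RPM for 27% of the 623 miRNAs tested in edgeR. The share with both AD mice below was not counted.

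The arm that carries the seed usually ascribed to miR-219 had few reads. miR-219-5p was at 18.9 RPM (17.3 to 20.6) and 13.6 RPM (12.1 to 15.2) in WT1 and WT2, and at 13.1 RPM (11.6 to 14.7) and 23.9 RPM (21.8 to 26.2) in APP3 and APP4. The siblings WT1 and APP4 were the high ones. miR-219-1-3p, from the chromosome 17 locus, was the lowest, with 6.06 and 4.12 RPM in WT1 and WT2 (158 and 91 reads) and 4.42 and 4.88 RPM in APP3 and APP4 (94 and 93 reads). The order miR-338-3p, miR-219-2-3p, miR-338-5p, miR-219-5p, miR-219-1-3p held in each of the 4 libraries, and no intervals of neighbours in this order overlapped. This is an order of reads, since adapters are not ligated equally well to all miRNAs.

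**Figure D1:**
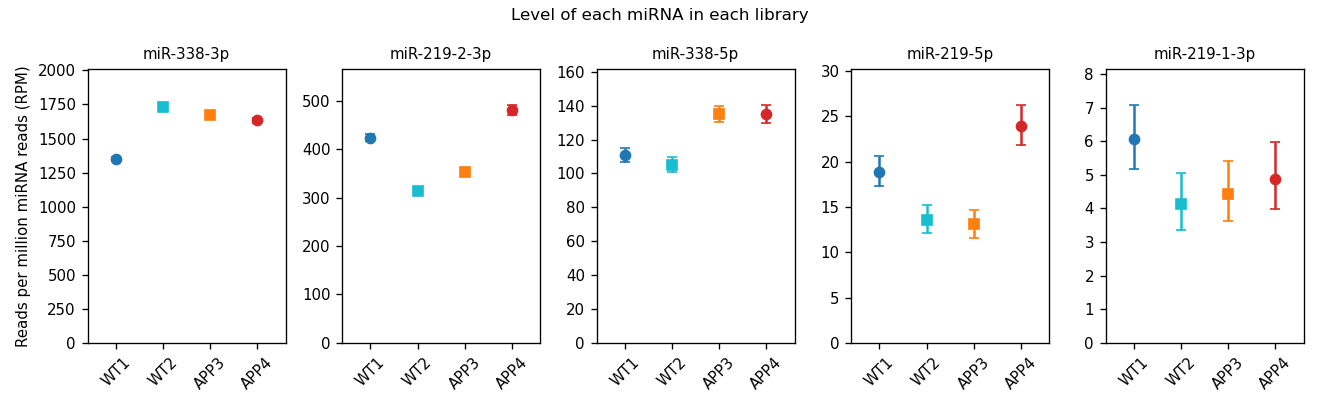
Level of each miRNA in RPM (y axis, from 0, a scale of its own in each panel) in each library (x axis), with WT mice in blue and AD mice in orange and red. Circles are the siblings of group 1, squares those of group 2, and bars 95% Wilson intervals. miR-338-5p was at 135 RPM in both AD mice against 111 and 105 in the WT mice. The 3 miR-219 rows were higher in both mice of group 1 than in both mice of group 2, and miR-338-3p was lower.

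With the mice as replicates, none of the 5 miRNAs passed the test between the genotypes. The quasi-likelihood test of edgeR, adjusted by Benjamini-Hochberg over 623 miRNAs, called 0 (0%) at an adjusted p under 0.05, and 36 (5.78%) had an unadjusted p under 0.05. DESeq2 also called 0, with 28 unadjusted. The 5 miRNAs all passed the filter on low counts, and 0 of them had an unadjusted p under 0.05 in edgeR. Their median log2 fold change (AD over WT mice) was 0.02, against -0.02 for all miRNAs tested.

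miR-338-3p averaged 1539 ± 268 RPM over the WT mice and 1652 ± 25.5 RPM over the AD mice (SD, n = 2 each). After TMM normalization its log2 fold change was -0.03 (SE 0.19, edgeR adjusted p = 0.995), and the 95% interval from -0.46 to 0.41 leaves room for a change of either sign. Its sign turned to positive without TMM, where the log2 fold change was 0.10. For miR-338-5p the means were 108 ± 4.14 and 135 ± 0.0871 RPM (SD, n = 2 each). Its log2 fold change was 0.18 (SE 0.20, edgeR adjusted p = 0.958, interval -0.30 to 0.67), and it was positive under every scaling tried. Both AD mice lay above both WT mice for 27% of the 623 miRNAs in RPM and for 14.9% after TMM scaling, and miR-338-5p was among them on both scales. Separation of this kind was thus common among the miRNAs of these libraries.

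The genotypes overlapped in all 3 miR-219 rows. miR-219-2-3p averaged 370 ± 77.3 RPM over the WT mice and 417 ± 91.2 RPM over the AD mice (SD, n = 2 each), with a log2 fold change of 0.02 (SE 0.25, interval -0.56 to 0.60). miR-219-5p had 16.2 ± 3.76 and 18.5 ± 7.68 RPM and a log2 fold change of 0.02 (SE 0.31, interval -0.71 to 0.76). The log2 fold change of miR-219-1-3p was -0.28 (SE 0.27, interval -0.92 to 0.37). The adjusted p of each was at least 0.958 in edgeR. The intervals of miR-219-2-3p and miR-219-5p reach past 0.5 on the log2 scale in both directions, so that changes of that size lie within them.

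**Figure D2:**
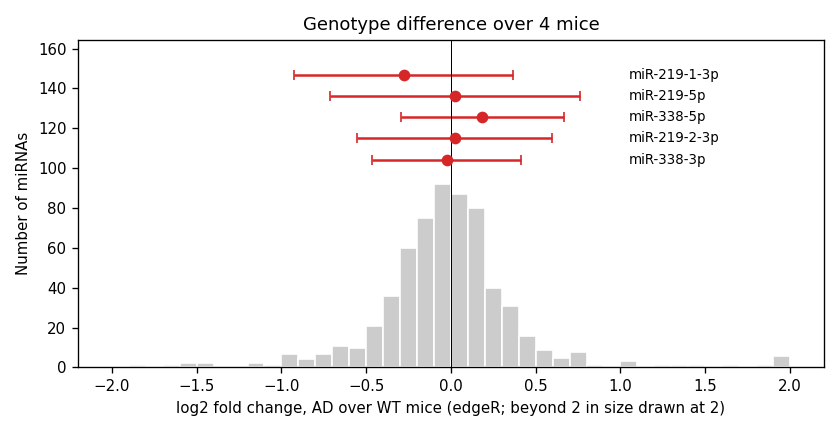
Log2 fold change of the AD over the WT mice by edgeR (x axis) for the 623 miRNAs tested (grey, number of miRNAs on the y axis) and for the 5 miRNAs (red points, drawn above the histogram at heights without meaning, with 95% intervals). The intervals of the 5 all include 0, and their points lie between -0.28 and 0.18.

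The study compared the siblings of each pair by Fisher's exact test on reads, which compares 2 libraries and not the genotypes. With its limits of 0.05 for the FDR and 1.5-fold for the change, 0 of the 5 miRNAs were called in group 1, where 11.6% of 899 miRNAs were, and 0 of the 5 in group 2, where 6.81% of 896 were. By the FDR alone 4 of 5 passed in group 1 (background 40.3%) and 3 of 5 in group 2 (background 36%). With TMM library sizes 2 of 5 passed in group 1 (background 35%), of which 1 had passed before, and 3 of 5 in group 2 (background 35.7%). Passing the FDR at these depths takes only a small difference in a miRNA with many reads. The median log2 difference of the 252 miRNAs with at least 50 RPM was 0.14 in group 1 and 0.04 in group 2. TMM scaling moved every value by -0.25 in group 1 and by -0.02 in group 2.

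miR-338-5p was higher in the AD mouse of both pairs, with a log2 fold change of 0.28 (SE 0.04, FDR 2.53e-12 by Fisher's exact test) in group 1 and 0.36 (SE 0.04, FDR 2.49e-18) in group 2. With TMM library sizes these became 0.03, which no longer passed the FDR (0.650 by Fisher's exact test), and 0.34, which did. For comparison, WT2 and WT1 differed by -0.08 and APP4 and APP3 by 0.00, neither of which passed the FDR (0.121 and 1 by Fisher's exact test). With TMM library sizes they were -0.18 and -0.13, both past the FDR and both larger in size than the 0.03 within group 1. miR-338-3p was higher in APP4 than in WT1 by 0.28 (SE 0.01, FDR 3.71e-132) and slightly lower in APP3 than in WT2, with -0.05 (SE 0.01, FDR 1.69e-05). The value in group 1 was 0.02 with TMM library sizes and no longer passed the FDR (0.109 by Fisher's exact test). The 2 WT mice differed more than either pair of siblings, by a log2 difference of 0.36.

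miR-219-2-3p was higher in the AD mouse by 0.18 (SE 0.02) in group 1 and 0.16 (SE 0.02) in group 2, but with TMM library sizes the first turned to -0.07. Between mice of one genotype it differed by -0.43 (WT2 against WT1) and 0.45 (APP4 against APP3). miR-219-5p had log2 differences of 0.34 in group 1 (SE 0.09, FDR 9.69e-04 by Fisher's exact test) and -0.06 in group 2 (SE 0.12, FDR 0.814). The first fell to 0.088 with TMM library sizes and no longer passed the FDR (0.562 by Fisher's exact test). The differences within a genotype were -0.48 for WT2 against WT1 and 0.87 for APP4 against APP3. The last, a 1.83-fold difference between 278 and 456 reads, was the only one of the 5 miRNAs' differences between the AD mice past both limits, where 8.05% of 907 miRNAs were. In WT2 against WT1, 0 of 5 were called (10.1% of 879). The FDR alone was passed by 4 of 5 between the WT mice (40.5% of all) and by 3 of 5 when the AD mice were compared with each other (35.2%). For miR-219-1-3p the differences were -0.31 in group 1 (SE 0.19, FDR 0.217 by Fisher's exact test) and 0.10 in group 2 (SE 0.21, FDR 0.823). The value in group 1 became -0.56 with TMM library sizes and then passed the FDR (0.0094 by Fisher's exact test). It was -0.55 for WT2 against WT1, which became -0.66 and passed both limits with TMM library sizes, and 0.14 for APP4 against APP3 (FDR 0.704). At TMM library sizes 5 of 5 passed the FDR between the WT mice and 4 of 5 between the AD mice, with 1 past both limits in each. The share of all miRNAs that passed in these 2 comparisons at TMM library sizes was not counted.

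**Figure D3:**
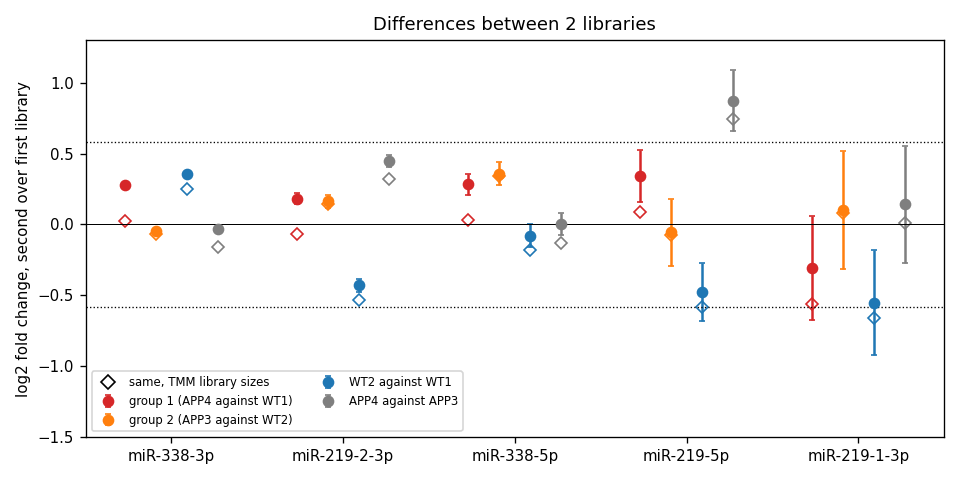
Log2 fold change between 2 libraries (y axis) for each miRNA (x axis) within the sibling pairs (red and orange) and between mice of one genotype (blue and grey), with 95% intervals for counting error, and open diamonds for TMM library sizes. The dotted lines mark 1.5-fold. miR-338-5p was higher in the AD mouse of both pairs, and all 3 miR-219 rows were lower in WT2 than in WT1.

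Both mice of group 1 had more RPM of each miR-219 row than both mice of group 2. For miR-219-1-3p this order was within counting error, with 93 reads in APP4 and 94 in APP3. Among the 623 miRNAs, 16.7% showed this order in RPM and 15.7% after TMM scaling, and the 3 rows kept it after TMM scaling. The rows are not independent, since miR-219-5p shares a hairpin with each of the others. miR-338-3p had the reverse order, with 1349 and 1634 RPM in WT1 and APP4 against 1728 and 1670 in WT2 and APP3. It kept this reverse order after TMM scaling, and the share of all miRNAs with it was not counted. Whether either order belongs to the litters or to anything else that 2 siblings share cannot be told apart.

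Ratios of 2 miRNAs of 1 library need no scaling between libraries. The reads of miR-338-3p were 12.2 and 16.4 times those of miR-338-5p in WT1 and WT2, and 12.4 and 12.1 times in APP3 and APP4. The ratio was alike in 3 mice and higher in WT2. Its mean log2 was 3.82 ± 0.31 for the WT and 3.61 ± 0.02 for the AD genotype (SD, n = 2 each), with a two-sided exact permutation p of 0.667, where 2 against 2 mice cannot give less than 0.333. Within group 1 the difference was below counting error (Fisher's exact p = 0.877), and within group 2 it exceeded counting error (Fisher's exact p = 7.73e-23). Without WT2 the log2 difference of the genotypes was 0.0097, against -0.21 with it. Such shifts were common, since among 41 hairpins with 1 listed row for each arm and at least 50 RPM on both, 11 departed further in WT2 from the mean of the other 3 libraries than miR-338 did.

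The row with the most reads of each name was a 3p arm. miR-219-2-3p had 22.5 and 23.2 times the reads of miR-219-5p in WT1 and WT2 and 27.0 and 20.1 times in APP3 and APP4, although the latter arm comes from both loci. miR-219-1-3p had fewer reads than miR-219-5p in each library. The excess of miR-219-2-3p over miR-219-1-3p, the same arm of the other locus, was 70.1-fold, 76.5-fold, 79.9-fold and 98.7-fold in the same order. Among the 41 hairpins, 18 had more reads on the 3p arm. Between the genotypes the two-sided exact permutation p of these ratios was 1 and 0.333, the latter the smallest that 2 against 2 mice allow. Across the 2 genes, miR-338-3p had 3.18 times the reads of miR-219-2-3p in WT1 and 3.39 times in APP4, but 5.48 times in WT2 and 4.73 times in APP3. The ratios of siblings lay closer to each other than to those of the other pair, but they differed beyond counting error in group 1 (Fisher's exact p = 6.13e-05) and in group 2 (Fisher's exact p = 5.17e-16).

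**Figure D4:**
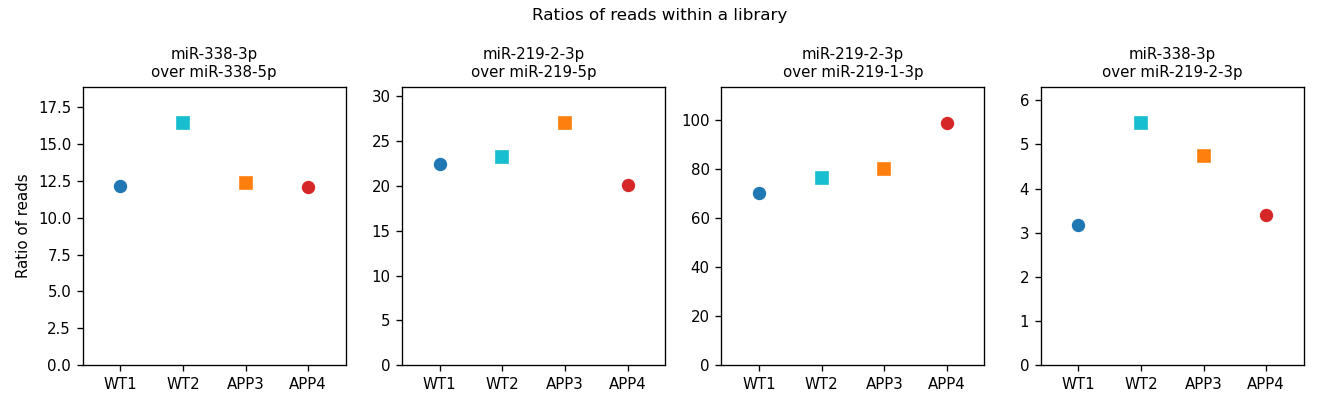
Ratio of the reads of 2 miRNAs in each library (y axis, from 0), with 1 panel for each ratio, circles for the siblings of group 1 and squares for those of group 2. The ratio of the arms of miR-338 stood at 16.4 in WT2 against 12.1 to 12.4 elsewhere, and the ratio of miR-338-3p to miR-219-2-3p was 3.18 and 3.39 in group 1 against 5.48 and 4.73 in group 2.

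How alike 2 miRNAs were over the 4 libraries was measured as the root mean square distance of their log2 RPM, each centred on its own mean, over the 252 miRNAs with at least 50 RPM. This is a description over 4 libraries. Closest to miR-338-3p were miR-484 (distance 0.01), miR-365-3p, miR-133a-3p, miR-27a-3p and miR-330-3p (0.06), where the median miRNA lay at 0.21. miR-484 was likewise low in WT1, with 296 and 388 RPM in WT1 and WT2 and 371 and 365 RPM in APP3 and APP4. Closest to miR-338-5p were miR-411-3p (0.04), miR-132-3p, miR-421-3p, miR-30c-1-3p and miR-433-3p (0.07), and miR-338-3p only came at place 112 of 251. For miR-219-2-3p, added after its values were seen, they were miR-103-3p (0.06), miR-98-5p, miR-540-3p, miR-107-3p and miR-1839-5p (0.07). miR-338-3p took place 176 in that order.

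Over the 4 libraries the SD of the log2 level was 0.16 for miR-338-3p, 0.19 for miR-338-5p and 0.27 for miR-219-2-3p, against a median of 0.20 for the 252 miRNAs. miR-338-3p was thus among the steadier miRNAs, with 28.2% having a smaller SD, and miR-219-2-3p among the more variable, with 75% below it.

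Of 12 other miRNAs with a reported role in cells of the oligodendrocyte lineage, 11 were listed. edgeR called 0 of them between the genotypes (0% of all), and their median log2 fold change was -0.14 against -0.02 for all miRNAs. Within the sibling pairs, 2 were called higher and 1 lower in APP4 than in WT1 (11.6% of all were called), and 1 higher and 1 lower in APP3 than in WT2 (6.81%). miR-138-5p, which promotes oligodendrocyte differentiation and also acts in dendritic spines, was higher in both, with 1666 and 2447 RPM in WT1 and WT2 against 3948 and 3174 in APP3 and APP4. miR-7a-5p, which drives precursors toward the oligodendrocyte fate, was lower in both, with 305 and 192 RPM in WT1 and WT2 against 87.4 and 193 in APP3 and APP4. The study named both of these from the same libraries, so the values here are not independent evidence. The study also measured both by qRT-PCR in a larger set of mice, which included the sequenced ones. It reported the same alteration for miR-7a-5p but made an exception of miR-138-5p. For miR-138-5p its supplement lists a qRT-PCR change of the same sign as in sequencing, but smaller. miR-32-5p, with 5.44 RPM in WT1 and 10.9 in APP4, was called in group 1 only, and its difference between the groups was not tested. miR-19b-3p, of the cluster of miR-17 that acts in precursor proliferation, was not called, and it had the pattern of miR-219-5p, with 20.2 RPM in WT1 and 20.8 in APP4 against 9.92 in WT2 and 9.45 in APP3.

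The 5 miRNAs summed to 1910 and 2166 RPM in WT1 and WT2 and to 2176 and 2280 RPM in APP3 and APP4, lowest in WT1. With TMM library sizes these sums were 2076, 2189, 2172 and 2079 in the same order, and both group 1 siblings were then the low ones. miR-338-3p held most of each sum, with 1349, 1728, 1670 and 1634 RPM. The 3 miR-219 rows alone summed to 449, 333, 370 and 511 RPM, lowest in WT2 and highest in APP4. The marker lists of other cells were summed in the same way. In this order of libraries, 4 vascular miRNAs summed to 31388, 32445, 30007 and 24404 RPM, and 3 erythrocyte miRNAs to 3993, 4626, 4047 and 3206, both lowest in APP4. Single rows carried these sums, miR-143-3p (16628 RPM in APP4 against 20760 to 24328) the first and miR-486-5p the second. The endothelial miR-126-3p was instead highest in APP4 (1058 RPM against 797 to 893), and miR-451a and miR-144-3p were lowest in WT1. The 5 microglial and leukocyte miRNAs summed to between 1125 and 1313 RPM, of which miR-146a-5p alone had 1023 to 1209. miR-142-5p had 54.7 and 74.3 RPM in WT1 and WT2 against 88.4 and 90.9 in APP3 and APP4, and miR-142-3p 1.88 and 1.45 against 2.92 and 3.41. miR-155-5p was also higher in both AD mice, whereas miR-146a-5p and miR-223-3p overlapped between the genotypes. Such separation held for 27% of the 623 miRNAs in RPM, and edgeR called 0 of the 5. The part of these cells in the levels of the miR-338 and miR-219 rows was not tested.

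**Figure D5:**
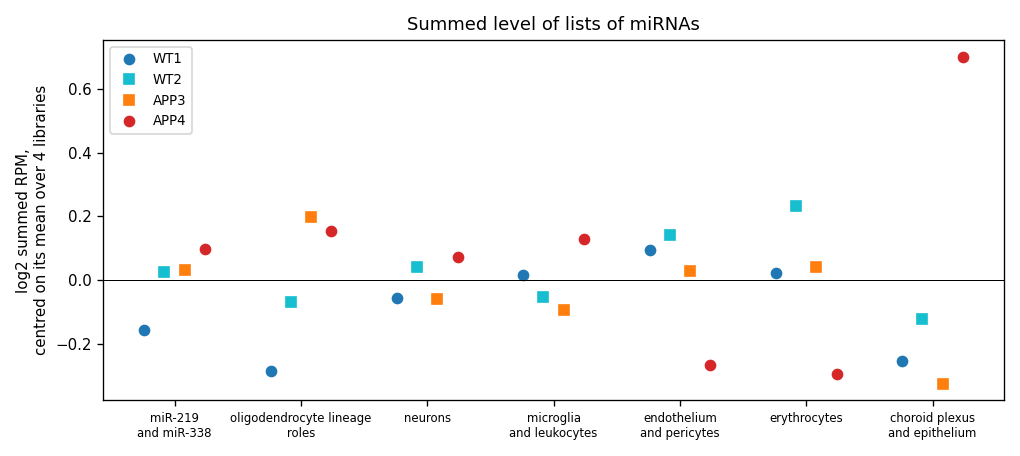
Log2 of the summed RPM of each list (y axis), centred on its mean over the 4 libraries, with 1 point for each library. The sum of the miR-219 and miR-338 rows was lowest in WT1 and highest in APP4, and the list of choroid plexus and epithelium stood highest in APP4.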

How the data were processed

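Small RNA of cortex was sequenced by the authors, who trimmed and filtered the reads, retained those of 18 to 35 nt, matched them to miRBase 19 (their methods name both up to 2 mismatches and none) and deposited raw read counts of each mature miRNA. Near-identical miRNAs may share reads. The deposited table also holds these counts as RPM of clean reads (its TPM columns), which served here only to recover the clean reads of each library. The paper names the genome build GRCm38, and the submitters' processing notes name mm9 and CASAVA 1.8. No coordinates came from the deposited table.

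Counts were scaled to the sum of each column. Genotypes were compared with edgeR 4.0.16 (R 4.3.3; filterByExpr, then TMM and the quasi-likelihood test), where the SE is the size of the log2 fold change over the square root of F and 95% intervals use the t distribution, and with DESeq2 1.42.0. Libraries were compared by Fisher's exact tests, two-sided (scipy 1.17.1) with Benjamini-Hochberg FDR over miRNAs with a read, and 0.5 read was added for log2 fold changes. The edgeR fit without the block and the Fisher rule were tested on simulated data. The sibling pairs come from the paper, and over 252 miRNAs the deviations of WT1 and APP4 from their genotype means had r = 0.235. The miRNAs named were the 5 rows, miR-3065, the lineage and marker lists, miRNAs of the same seed and the 5 closest patterns. The members and lists were chosen with earlier results of these data known. Alternatives were other library sizes, filters, limits and added reads, the sibling block, DESeq2 and leaving out each mouse.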

Additional observations from a re-analysis of the deposited data

Results flagged for a closer look

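miR-338-3p moved in opposite directions in the 2 sibling pairs, with a log2 fold change of 0.28 between APP4 and WT1 and -0.049 between APP3 and WT2, both past an FDR of 0.05 in Fisher's exact test. With 1 mouse of each genotype in a pair, no test of this difference was made. The value in group 1 was 0.02 with TMM library sizes and no longer passed the FDR (0.109 by Fisher's exact test).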

How the results depend on the processing

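Neither edgeR nor DESeq2 called any of the 5 miRNAs between the genotypes under any setting. The log2 fold change of miR-338-3p, -0.03 with TMM, was 0.10 without TMM, 0.0012 without the filter on low counts and 0.088 with the clean reads as library size, a setting added after the data were seen. With each mouse left out in turn, in fits where a lone mouse is assumed to vary like the other genotype, it lay between -0.16 and 0.14, that of miR-338-5p between 0.12 and 0.27, that of miR-219-2-3p between -0.18 and 0.31, that of miR-219-5p between -0.41 and 0.35 and that of miR-219-1-3p between -0.53 and 0.080. The calls over all miRNAs were then between 0 and 21, the latter without APP3, with 3 without WT1 and 5 without APP4. With the sibling pair as replicate block 2 miRNAs were called over all, and the block changed no call of the 5 miRNAs. Within the sibling pairs the only reversal by another scaling was that of miR-219-2-3p in group 1, at -0.070 with TMM library sizes. Added after the data were seen, TMM library sizes also turned miR-338-5p in APP4 against APP3 from 0.0013 to -0.13. The calls over all miRNAs, 104 in group 1 and 61 in group 2, fell to 32 and 23 on values scaled to 1000000 and rounded, to 50 and 23 with a limit of 2-fold, and to 50 and 30 with a minimum mean of 10 RPM, where fewer miRNAs were tested. The log2 difference of the arm ratio of miR-338 lay between -0.43 and 0.0097 with each mouse left out. Depth limits miR-219-1-3p most, which had 91 to 158 reads.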
